A study of Mus musculus with 15 samples.

Results

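Amylin (Iapp), the membrane proteases and the protease substrate of islet cells that are studied with it, and the parts from which amylin receptors are built were examined in sorted mouse islet cells. The 9 genes were chosen by name and role, with no threshold on a measured value: the peptide gene Iapp, the beta-secretases Bace1 and Bace2, the Bace2 substrate Tmem27 (collectrin, now named Cltrn), the receptors Calcr and Calcrl, and the receptor activity-modifying proteins Ramp1, Ramp2 and Ramp3. All 9 are among the 38283 genes of the expression table. RNA had been sequenced from 15 samples, 5 of alpha cells, 4 of beta cells and 6 of delta cells, to ask which genes set these cell types apart. Alpha and beta cells came from Glu-Venus mice, in which the proglucagon promoter drives the fluorescent protein Venus. Alpha cells were the Venus-positive cells, and beta cells were gated among the Venus-negative cells on scatter and autofluorescence. Delta cells came from mice of the genotype Sst-Cre X ROSA26 EYFP/EYFP, in which Cre made under the somatostatin promoter switches on EYFP. All mice were on the C57BL/6 strain, the labels name no treatment, and islets of several animals were pooled for each sort. For delta cells the mouse line changes together with the cell type, and the effects of line and cell type cannot be told apart.

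Amylin is a peptide hormone that beta cells store and release with insulin, and its human form can aggregate into islet amyloid. Its receptors are made of the calcitonin receptor, CALCR, joined to a RAMP, a small membrane partner that changes which peptide the receptor binds. The related receptor CALCRL needs a RAMP to reach the cell surface: with RAMP1 it binds CGRP, and with RAMP2 or RAMP3 it binds adrenomedullin. BACE1 and BACE2 are membrane aspartyl proteases that cut the outer part from other membrane proteins. BACE1 is best known for cutting the amyloid precursor protein in neurons, and BACE2 for cutting collectrin in beta cells.

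Values are FPKM, which scale reads to the length of the transcript and to the total of mapped reads, so levels can be compared between genes. A gene was tested where its mean exceeded 1 FPKM in at least 1 cell type, which held for 14405 genes and for 6 of the 9 examined here. Calcr, Calcrl and Ramp3 were below this filter. Tests used limma on log2(FPKM + 1) over all 15 samples, with Benjamini-Hochberg adjustment over the 14405 genes, and a call means an adjusted p under 0.05. Differences on this scale understate the change of genes with low values. Nothing in the labels says that samples of a group shared or did not share a sort, and p-values measure the spread between these pools.

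Within each cell type the samples differed in ribosomal protein RNA. The FPKM of 88 such genes summed to 65598 to 140970 in 6 samples (alpha 1 to 3, beta 2, delta 1 and 2) and to 7912 to 38761 in the other 9. These are called the higher and the lower set. Beta cells have 1 sample in the higher set. The number of reads could be judged in 6 samples, from the steps that single reads leave in low values, and lay between 7.5 M and 30.4 M reads. None of these 6 was a beta sample, and the depth of the other 9 is unknown. Of all tested genes, beta cells had 409 higher and 695 lower than alpha cells. With median-ratio size factors these counts were 1092 and 983, without beta sample 2 they were 370 and 1373, and without beta sample 3 they were 695 and 459. The balance of directions over all genes thus depended on the scaling and on single samples.

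The sequence before RefSeq start sites of Iapp and Tmem27 is shown because these are the most abundant members. Bases 250 to 34 before the RefSeq start sites are printed, both on the plus strand of GRCm38.p6, Iapp at chr6:142298175-142298391 and Cltrn at chrX:164089937-164090153. Neither stretch overlaps an annotated exon. The Cltrn stretch lies inside the GENCODE gene model of Tmem27, which starts at base 164088830. Capitals mark TAAT on either strand.
Iapp: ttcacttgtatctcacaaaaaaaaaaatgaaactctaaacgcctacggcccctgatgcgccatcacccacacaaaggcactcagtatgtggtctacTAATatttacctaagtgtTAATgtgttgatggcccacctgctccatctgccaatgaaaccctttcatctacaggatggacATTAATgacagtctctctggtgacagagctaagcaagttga
Cltrn: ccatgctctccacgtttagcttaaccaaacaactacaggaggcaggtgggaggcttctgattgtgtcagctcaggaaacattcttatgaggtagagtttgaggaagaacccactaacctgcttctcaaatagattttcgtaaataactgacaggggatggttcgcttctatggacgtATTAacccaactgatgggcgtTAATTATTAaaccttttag
TAAT is the core that many homeodomain proteins bind. It occurs 4 times in the Iapp stretch, counting 2 matches on opposite strands that overlap in ATTAAT. It also occurs 4 times in the Cltrn stretch, where 3 of the matches each overlap the next. A later RefSeq start of Cltrn, whose stretch is chrX:164091939-164092155 and is not printed, has 1 match. At least 4 matches are held by 8.27% of 32851 promoter stretches of the same length. Of the 9 members, 6 have a promoter entry in the RefSeq table. The stretches of Ramp1, Calcrl and Ramp3 and 1 of 2 of Calcr hold no TAAT, and the other of Calcr holds 1, against 52.1% of all stretches that hold at least 1. These matches describe letters, not bound sites.

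The levels of amylin RNA ran in the order beta, delta, alpha, with no overlap between neighbours. Iapp (ENSMUSG00000041681, chr6:142298423-142303961, plus strand, GRCm38) has 3 exons and lies within an intron of Slco1a5 on the opposite strand, with which it shares 0 exon bases. In alpha samples 1 to 5 it was at 808, 908, 1020, 194 and 325 FPKM. In beta samples 1 to 4 it was at 10831, 118008, 12747 and 22217 FPKM. In delta cells it ranged from 1629 to 7599 FPKM, with a median of 3724 over 6 samples. Every beta sample was above every delta sample, and every delta sample was above every alpha sample. By mean FPKM, Iapp ranked 9th of the 38283 genes in beta cells, 18th in delta cells and 127th in alpha cells.

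Iapp was called in all 3 comparisons, which share samples with each other. Beta cells exceeded alpha cells by 5.49 on the log2 scale (SE 0.725, limma adjusted p = 0.000134). Delta cells exceeded alpha cells by 2.82 (SE 0.654, adjusted p = 0.0126) and were below beta cells, at -2.67 (SE 0.697, adjusted p = 0.0165). In bulk samples such as these, fewer cells of a type and less RNA per cell cannot be told apart. Beta sample 2 stood far above the other beta samples. Without it the difference was 4.74 for beta against alpha cells and -1.92 for delta against beta cells (adjusted p = 0.000262 and 0.0398). Iapp kept its 3 calls in all 15 fits that leave out a sample. The order also held within each set. In the higher set Iapp was at 808 to 1020 FPKM in alpha cells, 6514 to 7599 in delta cells and 118008 in the beta sample. In the lower set it was at 194 to 325, 1629 to 3869 and 10831 to 22217 FPKM.

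**Figure D1:**
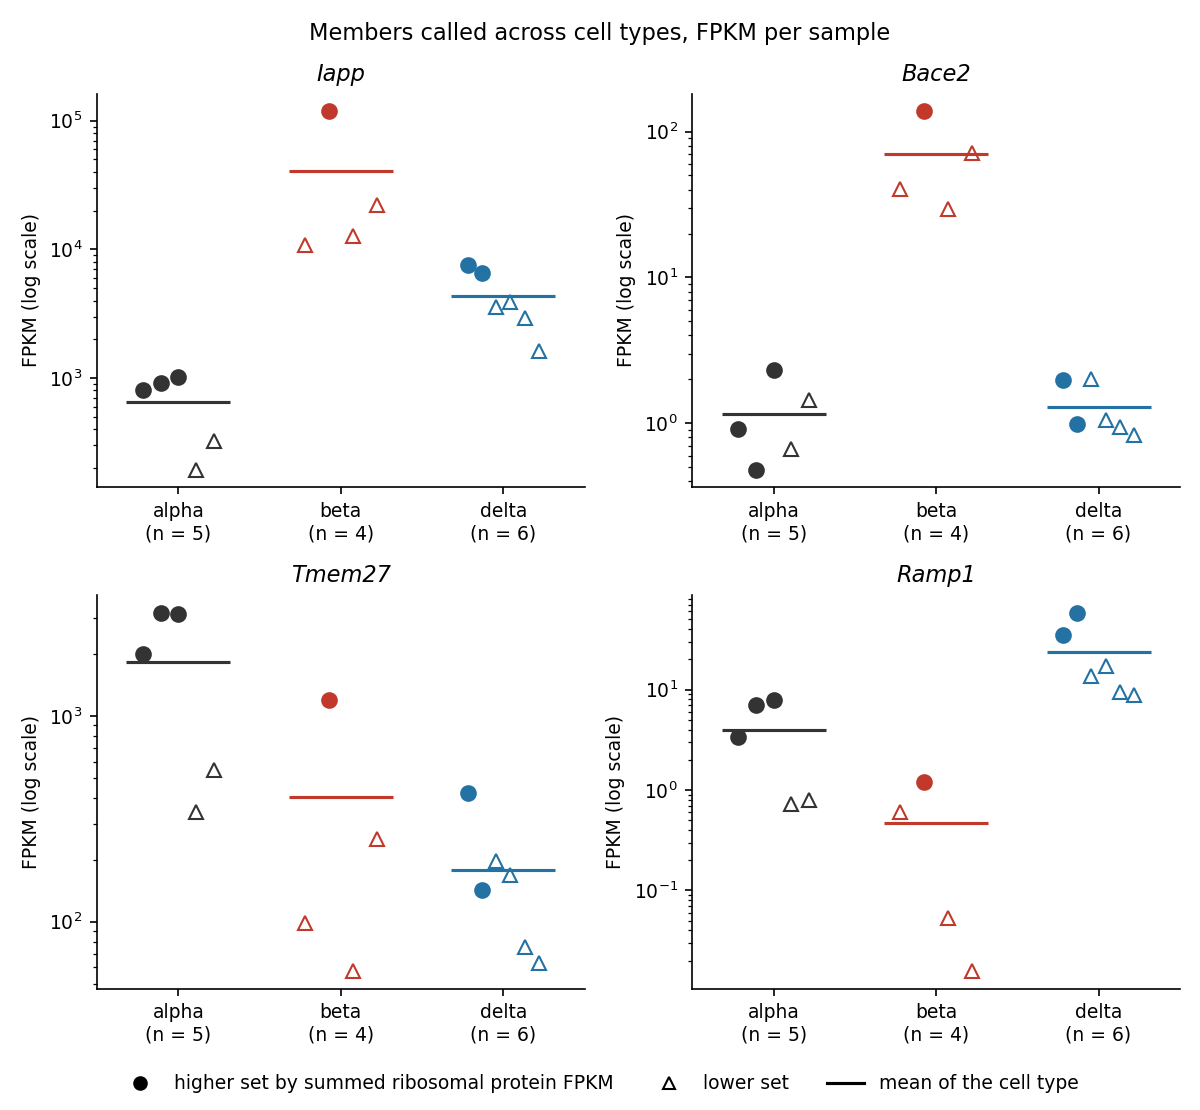
FPKM on a log axis of the 4 members called across cell types, in each sample of alpha (n = 5), beta (n = 4) and delta cells (n = 6), with a line at the mean; filled circles are samples of the higher set by summed ribosomal protein FPKM and open triangles those of the lower set. Iapp and Bace2 are highest in every beta sample, Ramp1 in every delta sample, and Tmem27 is highest in alpha cells within each set.

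The level of Iapp in delta cells was set beside those of other genes that beta cells express most. Delta cells held Iapp at 10.6% ± 5.52 (SD, n = 6) of the beta cell mean, with samples between 3.98% and 18.6%. The insulin genes stood lower, Ins1 at 2.08% ± 0.650 and Ins2 at 1.95% ± 0.432 (SD, n = 6). Pcsk1, the prohormone convertase that acts on proinsulin and proamylin, was at 11.8% ± 2.67 (SD, n = 6). Thus Iapp and Pcsk1 in delta cells were at a larger share of their beta cell level than the insulin genes were. In alpha cells the same shares were 1.59% ± 0.899 for Iapp, 2.52% ± 1.20 for Ins1, 1.87% ± 0.782 for Ins2 and 0.755% ± 0.563 for Pcsk1 (SD, n = 5). Against the mean of the other 3 beta samples, without beta sample 2, delta cells held Iapp at 28.5% ± 14.8 and Ins2 at 2.03% ± 0.450 (SD, n = 6). Pcsk1 was then at 16.8% ± 3.81 (SD, n = 6), so the order of Iapp and Pcsk1 in delta cells turned. Against that mean, alpha cells held Iapp at 4.265% ± 2.41, above Ins1 at 2.87% ± 1.37 and Ins2 at 1.95% ± 0.813 (SD, n = 5), so the order of these genes in alpha cells turned.

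The insulin genes did not separate delta from alpha cells. The log2 difference of delta against alpha cells was -0.22 for Ins1 (SE 0.480, limma adjusted p = 0.887) and 0.13 for Ins2 (SE 0.496, adjusted p = 0.947). Divided by Ins2 in the same sample, Iapp was at 0.299 to 1.71 in delta cells (median 0.601), 0.0366 to 0.345 in alpha cells (median 0.08885) and 0.01995 to 0.359 in beta cells (median 0.166). The delta ratios to Ins2 overlapped those of the other cells at their lower end. Divided by Ins1, Iapp was at 1.47 to 6.21 in delta cells, without overlap with alpha cells (at most 0.879) or beta cells (at most 1.08).

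**Figure D2:**
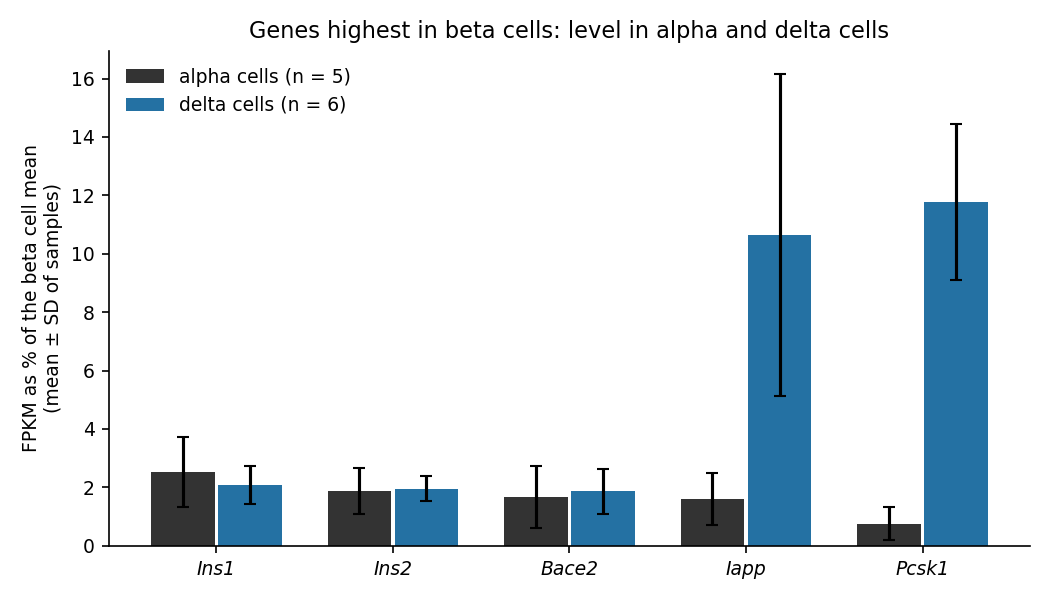
Mean FPKM of Ins1, Ins2, Bace2, Iapp and Pcsk1 in alpha (n = 5) and delta cells (n = 6), as a percentage of the beta cell mean of the same gene; bars are means and error bars the SD of samples. In delta cells Iapp and Pcsk1 stand at 10.6% and 11.8%, and the other genes between 1.87% and 2.08%.

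The beta-secretases differed from each other in pattern. Bace2 (ENSMUSG00000040605, chr16:97356742-97442936, plus strand) was at 40.3, 137.5, 29.3 and 71.5 FPKM in beta samples 1 to 4. It was at 0.920, 0.482, 2.32, 0.665 and 1.44 FPKM in alpha samples 1 to 5, and at 0.829 to 2.00 in delta cells (median 1.02). All beta samples lay above all others, and the alpha and delta samples overlapped. Bace2 ranked 858th by mean in beta cells, 11723rd in alpha cells and 12191st in delta cells.

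The difference in Bace2 between beta and alpha cells was 4.84 on the log2 scale (SE 0.406, limma adjusted p = 1.4e-06). Delta cells were lower than beta cells by a like amount, at -4.73 (SE 0.391, adjusted p = 6.9e-07). Delta and alpha cells differed by 0.12 (SE 0.367, adjusted p = 0.930), which is within the spread of the samples. Both calls were kept in all 15 fits that leave out a sample. In delta cells Bace2 was at 1.87% ± 0.771 (SD, n = 6) of its beta cell mean, near the shares of the insulin genes and below that of Iapp.

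Bace1 (ENSMUSG00000032086, chr9:45838580-45864399, plus strand) was present in all 15 samples, between 2.35 and 14.15 FPKM. It was at 5.80, 2.78, 7.64, 6.29 and 14.15 FPKM in alpha cells, at 3.76, 5.46, 2.35 and 6.04 in beta cells, and at 5.21 to 13.6 in delta cells (median 9.01). The samples of the 3 cell types overlapped. The log2 difference was -0.54 for beta against alpha cells (SE 0.403, limma adjusted p = 0.452), 0.38 for delta against alpha cells (SE 0.364, adjusted p = 0.675) and 0.92 for delta against beta cells (SE 0.388, adjusted p = 0.130). With the lower set alone the last was called, at 1.29 (adjusted p = 0.0416), and there delta cells (8.30 to 13.6 FPKM) did not overlap beta cells (2.35 to 6.04). In the higher set the 1 beta sample, at 5.46 FPKM, lay within the delta range of 5.21 to 6.38. In beta cells the mean of Bace2, 69.6 ± 48.6 FPKM (SD, n = 4), was above that of Bace1, 4.40 ± 1.68. In alpha and delta cells Bace1 had the higher mean, 7.33 ± 4.21 (SD, n = 5) and 9.25 ± 3.29 (SD, n = 6), against 1.16 ± 0.738 and 1.30 ± 0.537 for Bace2. Bace1 shares 975 exon bases with Rnf214, 951 with Gm49338 and 135 with Gm16536, all on the opposite strand. Whether counting used strand is not given in the sources used here, so reads from overlapping exons cannot be told apart.

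Tmem27 encodes collectrin, a membrane protein of islet cells and kidney. Tmem27 (ENSMUSG00000015401, chrX:164088830-164118860, plus strand) was at 1992, 3180, 3121, 340 and 548 FPKM in alpha samples 1 to 5, and at 98.4, 1201, 57.7 and 253 in beta samples 1 to 4. In delta cells it ranged from 63.0 to 421 FPKM (median 156). Alpha cells had the highest values, and the lowest alpha samples overlapped the highest samples of the other cell types. By mean FPKM it ranked 50th in alpha cells, 131st in beta cells and 310th in delta cells. The beta cell mean of 402.5 FPKM rests on sample 2, and the other 3 beta samples had a mean of 136 FPKM, below the delta cell mean of 178. Its alpha cell mean of 1836 ± 1358 FPKM (SD, n = 5) was above that of Iapp, 651 ± 368.

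Tmem27 was lower in delta than in alpha cells, at -3.15 (SE 0.801, limma adjusted p = 0.0230). This call was lost without alpha sample 1, 2 or 3 or delta sample 5 or 6, with adjusted p up to 0.0755. Beta against alpha cells gave -2.66 (SE 0.888, adjusted p = 0.0810), and without beta sample 2 it was called, at -3.51 (adjusted p = 0.0137). Delta and beta cells differed by -0.48 (SE 0.854, adjusted p = 0.758), and by 0.36 without beta sample 2. Within alpha cells Tmem27 moved with the set of the sample, and within delta cells the sets overlapped. In the higher set it was at 1992 to 3180 FPKM in alpha cells, 1201 in the beta sample and 142 to 421 in delta cells. In the lower set it was at 340 to 548, 57.7 to 253 and 63.0 to 197 FPKM. Within each set every alpha sample was above every beta and delta sample. In fits of 1 set alone, delta against alpha cells was not called, at -3.46 in the higher set (adjusted p = 0.102) and -1.93 in the lower set (adjusted p = 0.205). Beta against alpha cells was at -1.17 and -1.93 (adjusted p = 0.444 and 0.142), where the first rests on 1 beta sample that is assumed to vary like the other groups. With the set as a covariate, delta against alpha cells was called, at -2.56 (adjusted p = 0.00508), and beta against alpha cells was not, at -1.89 (adjusted p = 0.0520).

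**Figure D3:**
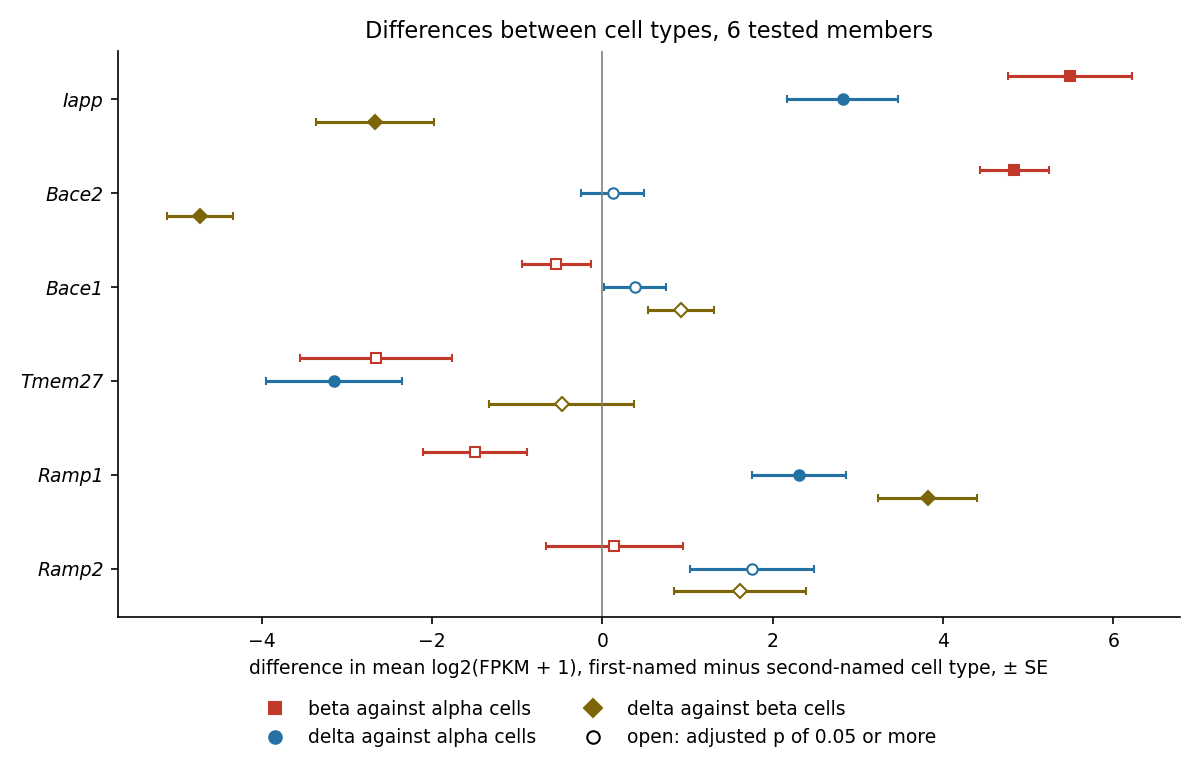
Difference in mean log2(FPKM + 1) between cell types, first-named minus second-named, with SE, for the 6 tested members; filled marks have a limma adjusted p under 0.05. Iapp differs in all 3 comparisons, Bace2 in the 2 that include beta cells, Ramp1 in the 2 that include delta cells and Tmem27 in delta against alpha cells.

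The receptor parts were at low levels, apart from Ramp1 in delta cells. Calcr, the calcitonin receptor and core of amylin receptors (ENSMUSG00000023964, chr6:3685680-3764714, minus strand), was at 0.220, 0.312, 0.0595, 0.231 and 0.0220 FPKM in alpha samples 1 to 5. It was listed at 0 in all 4 beta samples and all 6 delta samples. All 5 alpha samples were thus above the others, at a mean of 0.169 ± 0.123 FPKM (SD, n = 5). In alpha samples 1 and 2, where depth could be judged, these values stand for about 8.21 and 8.28 reads on the longest coding transcript. A listed 0 need not mean that no read was sequenced. With no filter on low values, the limma adjusted p was 0.0258 for delta against alpha cells and 0.0508 for beta against alpha cells.

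Calcrl, the receptor of CGRP and adrenomedullin (ENSMUSG00000059588, chr2:84330626-84425411, minus strand), was highest in delta cells, at 0.0699 to 1.325 FPKM (median 0.573). It was at 0.193, 0, 0.496, 0.2505 and 0 FPKM in alpha samples 1 to 5. In beta cells it was listed at 0 in 3 samples and at 0.00181 FPKM in sample 3. The delta samples were all above the beta samples and overlapped the alpha samples. In delta samples 1 to 4 the values stand for about 64.8, 19.9, 43.6 and 88.8 reads. With no filter, delta against beta cells had a limma adjusted p of 0.0393 at a difference of 0.63, and delta against alpha cells 0.262 at 0.40.

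Ramp1, the partner that makes CALCRL a CGRP receptor and CALCR an amylin receptor, was the receptor part with the clearest difference. Ramp1 (ENSMUSG00000034353, chr1:91179822-91225196, plus strand) was at 8.79 to 58.2 FPKM in delta cells (median 15.4). It was at 3.36, 7.07, 7.95, 0.720 and 0.796 FPKM in alpha samples 1 to 5, and at 0.608, 1.21, 0.0530 and 0.01585 in beta samples 1 to 4. Every delta sample was above every alpha and beta sample, and alpha and beta samples overlapped. By mean FPKM, Ramp1 ranked 2203rd in delta cells, 7897th in alpha cells and 13092nd in beta cells.

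Delta cells exceeded alpha cells in Ramp1 by 2.31 (SE 0.549, limma adjusted p = 0.0144) and beta cells by 3.82 (SE 0.585, adjusted p = 0.000352). Both calls were kept in all 15 fits that leave out a sample, with adjusted p up to 0.0487 and 0.00276. Beta against alpha cells gave -1.50 (SE 0.608, adjusted p = 0.147), and with a pseudocount of 0.1 in place of 1 this was called, at -2.92 (adjusted p = 0.0417). Ramp1 also moved with the set. In the higher set it was at 34.9 to 58.2 FPKM in delta cells, 3.36 to 7.95 in alpha cells and 1.21 in the beta sample, and in the lower set at 8.79 to 17.3, 0.720 to 0.796 and 0.01585 to 0.608. The order delta, alpha, beta held in both sets. In a fit of the higher set alone, delta against alpha cells was not called, at 2.76 (adjusted p = 0.111), and in the lower set it was, at 2.87 (adjusted p = 0.00285). Ppy, the hormone gene of pancreatic polypeptide cells, also moved with these samples. It was at 10857 to 48600 FPKM in delta cells (median 13715), 17728 to 41392 in alpha cells (median 28751) and 16.95 to 98.1 in beta cells (median 32.6). In delta samples 1 and 2, where Ramp1 and Iapp were highest, Ppy was at 30339 and 48600 FPKM, against 10857 to 14596 in the other 4. Sst, the hormone gene of delta cells, moved the same way, at 259604 and 266276 FPKM against 101492 to 128258, so this shift was not particular to Ppy. Delta and alpha cells differed in Ppy by -0.69 (SE 0.515, limma adjusted p = 0.583) and delta and beta cells by 8.91 (SE 0.549, adjusted p = 7.1e-08), and its part in Ramp1 and Iapp was not tested. The acinar marker Cela1, an elastase, named after its values were seen, was at 95.2 and 91.9 FPKM in delta samples 1 and 2, 17.9 to 48.4 in the other delta samples, and at most 10.2 in alpha and 3.58 in beta cells. It was higher in delta cells than in alpha cells by 3.52 (SE 0.635, limma adjusted p = 0.00187) and than in beta cells by 4.71 (SE 0.677, adjusted p = 0.000194), and its part was not tested. The other acinar markers listed did not share this pattern. Cpa1, Prss2, Pnlip and Ctrb1 were highest in delta sample 4 and were called in neither comparison. Ctrb1 was at 340 FPKM in that sample and at 1.12 to 53.4 in the other delta samples. Amy2a5 was listed at 0 in all samples.

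Ramp2, the partner that makes CALCRL an adrenomedullin receptor (ENSMUSG00000001240, chr11:101246028-101259546, plus strand), was at 4.12 to 62.1 FPKM in delta cells (median 5.62). It was at 3.62, 1.68, 13.4, 0 and 0 FPKM in alpha samples 1 to 5 and at 1.59, 4.46, 0.937 and 2.43 in beta samples 1 to 4. The 3 cell types overlapped, and delta sample 2 stood far above the rest. The log2 difference was 0.14 for beta against alpha cells (SE 0.805, limma adjusted p = 0.961), 1.76 for delta against alpha cells (SE 0.727, adjusted p = 0.205) and 1.62 for delta against beta cells (SE 0.775, adjusted p = 0.182). In the lower set Ramp2 was listed at 0 in both alpha samples, and was at 0.937 to 2.43 FPKM in beta cells and 4.12 to 6.68 in delta cells. In the higher set alpha cells, at 1.68 to 13.4 FPKM, overlapped delta cells, at 9.20 to 62.1. With the set as a covariate, delta against alpha cells was called, at 2.30 (adjusted p = 0.00722). Of the 3301 exon bases of Ramp2, 1103 also belong to Vps25 on the same strand, so its level can include reads of Vps25.

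Ramp3 (ENSMUSG00000041046, chr11:6658521-6677475, plus strand), the other adrenomedullin receptor partner, was listed at 0 in 12 of the 15 samples. It was at 0.0563 FPKM in beta sample 2, and at 0.1045 and 0.0684 FPKM in delta samples 4 and 5. The value in delta sample 4 stands for about 2.75 reads.

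**Figure D4:**
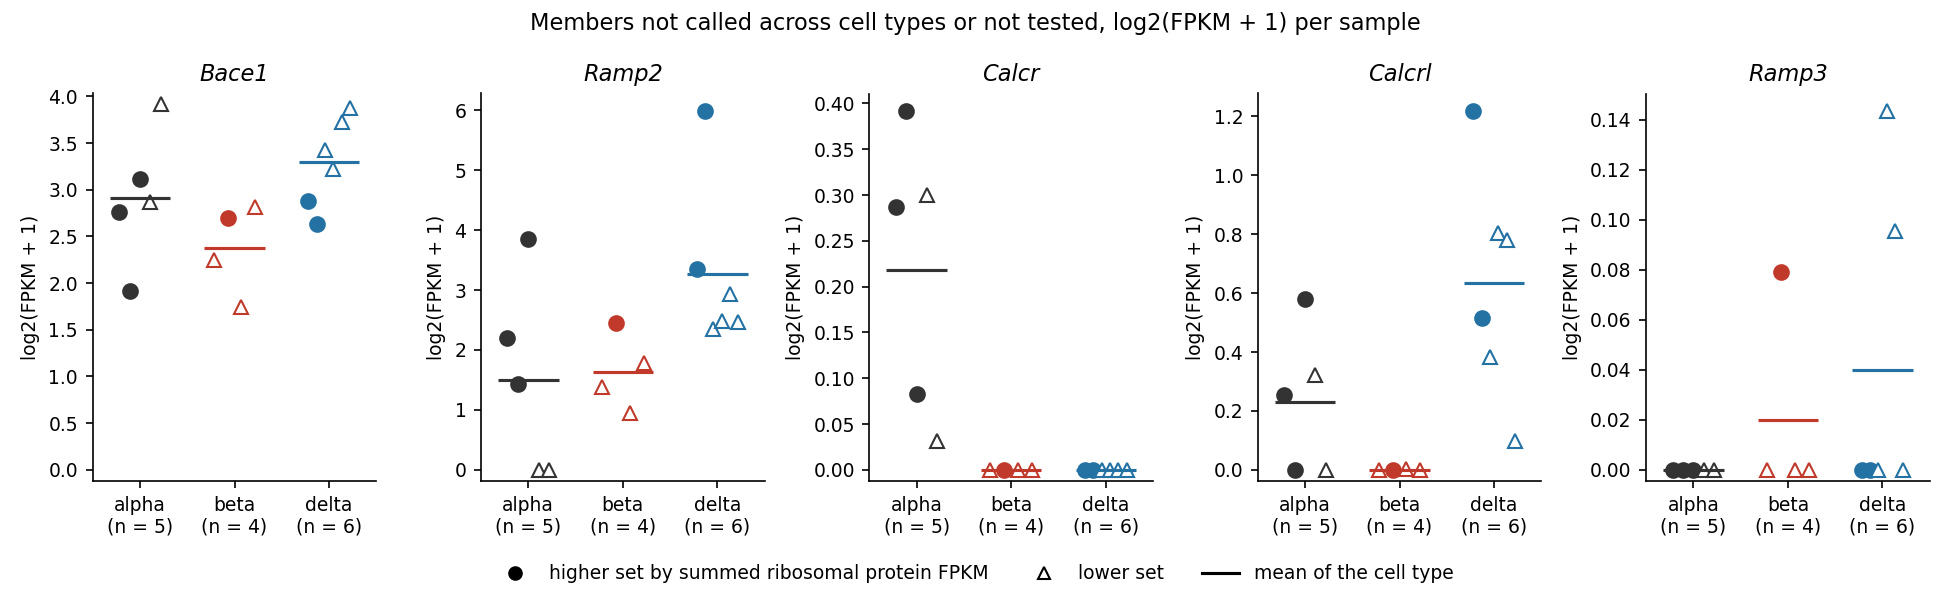
log2(FPKM + 1) of Bace1, Ramp2, Calcr, Calcrl and Ramp3 in each sample, with a line at the mean of each cell type; filled circles are samples of the higher set and open triangles those of the lower set, and the vertical scale differs between panels. Calcr is above 0 in the 5 alpha samples only, and Calcrl is higher in every delta sample than in every beta sample.

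The cell type with Calcr above 0 was not the one with the most Ramp1. Alpha cells were the 1 cell type with Calcr above 0, and had Ramp1 at 3.98 ± 3.41 and Ramp2 at 3.745 ± 5.61 FPKM (SD, n = 5). In alpha samples 2 and 3 Ramp1 was at 7.07 and 7.95 FPKM, near the lowest delta sample at 8.79. Delta cells had Calcrl at 0.599 ± 0.438, Ramp1 at 23.7 ± 19.4 and Ramp2 at 15.2 ± 23.1 FPKM (SD, n = 6), with Calcr listed at 0. The Ramp2 mean rests on delta sample 2, at 62.1 FPKM, and the other 5 delta samples were at 4.12 to 9.20. Beta cells, which had the most Iapp, had Calcr listed at 0, Calcrl at or near 0, Ramp1 at 0.472 ± 0.562 and Ramp2 at 2.355 ± 1.53 FPKM (SD, n = 4). In delta cells Ramp1 and Ramp2 were thus above Calcrl by mean FPKM, and Ramp3, at 0.0288 ± 0.0461 (SD, n = 6), was below it.

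Calcrl and Ramp2 are also genes of blood vessel cells. Of 8 endothelial markers, Esam was the only gene above 1 FPKM in any sample. The list summed to 1.47 to 3.45 FPKM in alpha cells, 0.621 to 3.82 in beta cells and 3.24 to 6.17 in delta cells. The other 7 markers summed to at most 1.14, 0.569 and 1.795 FPKM, and 2 of the 8 were at 0 in every alpha sample. Acinar markers (6 genes) summed to 0.0651 to 58.1 FPKM in alpha cells, 0.0283 to 8.82 in beta cells and 19.6 to 446 in delta cells. The median sum of each list was highest in delta cells, as were the medians of Calcrl and Ramp2, and their part in those values was not tested. The median sums of duct, mesenchyme and leucocyte markers were highest in alpha cells, at 46.3, 2.995 and 0.781 FPKM. Single genes of these lists went different ways. Krt19 and Spp1 had their highest means in alpha cells, and Krt7, Muc1 and Cftr in delta cells. Muc1 was higher in every delta sample than in every other sample. Only Col1a2 and Rgs5 of the mesenchyme markers exceeded 1 FPKM in an alpha sample. The leucocyte median in delta cells was 0.713 FPKM.

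Read against all genes, 2 of the 6 tested members were called in beta against alpha cells, both higher (Iapp and Bace2), where 7.66% of all tested genes were called, 2.84% higher and 4.82% lower. In delta against alpha cells 3 were called, Iapp and Ramp1 higher and Tmem27 lower, against 6.81% of all tested genes, 5.33% higher and 1.48% lower. In delta against beta cells 3 were called, Ramp1 higher and Iapp and Bace2 lower, against 14.7% of all tested genes, 11.7% higher and 2.99% lower. In limma's F-test across the cell types 4 were called (Iapp, adjusted p = 0.0002, Bace2, 4.6e-07, Ramp1, 0.00065, and Tmem27, 0.0256), against 16.0% of tested genes. The median log2 difference of the 6 was -0.20, 1.07 and 0.22 in these 3 comparisons, and -0.13, 0.13 and 0.30 over all tested genes.

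In beta against alpha cells 2 of the 9 members were higher without overlap between samples (Iapp and Bace2) and Calcr lower, against 8.12% of tested genes without overlap, 3.05% higher and 5.07% lower. These counts take in the 3 members below the filter, and the shares do not take in such genes. In delta against alpha cells, Iapp and Ramp1 were higher and Calcr lower without overlap, against 6.64% of tested genes, 4.97% higher and 1.67% lower. In delta against beta cells, Ramp1 and Calcrl were higher and Iapp and Bace2 lower without overlap, against 14.9% of tested genes, 12.3% higher and 2.62% lower.

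Each tested member was also set beside the genes most like it, by Pearson's r of log2(FPKM + 1) over the 15 samples, which share cell types and sets. Iapp was most like Gng12 and Ppp1r1a (r = 0.96 for both) and Fkbp1b (0.95), with Spearman's rho between 0.92 and 0.98. Bace2 was most like St8sia1 (0.99), Emid1 and Car10 (0.98 for both). Their rho was 0.59 to 0.63, so these r values rest on the gap between the beta samples and the rest. Tmem27 was most like Serpina10, Tmsb4x and Nap1l5 (0.96, 0.96 and 0.95), and Ramp1 was most like S100a16, Gpm6a and Gm20485 (0.97, 0.96 and 0.95). The nearest genes to Bace1 were Phf12, Sipa1l1 and Gcn1l1 (0.91, 0.90 and 0.89), and to Ramp2 Parp12, Meaf6 and Xaf1 (0.89, 0.89 and 0.88).

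The surroundings of these genes were examined in 6 lists of 30 genes, of which 23 could be tested. In beta against alpha cells 2 were called higher and 2 lower, with a median of -0.25. In delta against alpha cells 2 were higher and 0 lower by limma (median 0.30), where Calca alone was lower at an unadjusted p under 0.05 (-1.14). In delta against beta cells 4 were higher and 2 lower (median 0.44). These shares stand beside the 7.66%, 6.81% and 14.7% of all tested genes. Apart from Ide and Ncstn, each called gene of the lists stayed called in all 15 fits that leave out a sample.

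Of the other peptides that bind these receptors, Calca, which encodes calcitonin and CGRP, had a mean of 5.66 ± 4.72 FPKM in alpha cells (SD, n = 5). The means were 0.146 ± 0.269 in beta (SD, n = 4) and 1.90 ± 1.80 in delta cells (SD, n = 6). The beta cell mean rests on sample 2, at 0.548 FPKM, and the other beta samples were at 0 to 0.0366. Beta cells were below alpha cells, at -2.28 (SE 0.523, limma adjusted p = 0.0138), with no overlap. Delta cells differed from alpha cells by -1.14 (adjusted p = 0.210). Calcb, the other CGRP gene, was listed at 0 in all samples. Adm, adrenomedullin, was above 0 in 1 delta sample, and Adm2 in 3 beta samples.

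Of 4 enzymes that process prohormones, Pcsk1 was called in all 3 comparisons and Pcsk2, Cpe and Pam in none. The means of Pcsk1 were 138.5 ± 92.9 FPKM in beta (SD, n = 4), 16.3 ± 3.70 in delta (SD, n = 6) and 1.045 ± 0.780 in alpha cells (SD, n = 5). Its order, beta, delta, alpha without overlap, was the order of Iapp. Against alpha cells it was higher by 5.92 in beta cells (SE 0.425, limma adjusted p = 3.5e-07) and by 3.12 in delta cells (SE 0.383, adjusted p = 5.3e-05). Delta against beta cells gave -2.79 (SE 0.409, adjusted p = 0.000233). Of the peptidases that degrade amylin-like peptides, Ide, the insulin-degrading enzyme, was lower in delta than in beta cells, at -1.43 (SE 0.433, adjusted p = 0.0356). The means of Ide were 39.95 ± 23.1 FPKM in beta (SD, n = 4) and 12.3 ± 3.30 in delta cells (SD, n = 6). The Ide call was lost without beta sample 1, 2 or 4 or delta sample 1, 2, 5 or 6, with adjusted p up to 0.126. Mme, neprilysin, was listed at 0 in all samples.

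Secretases that act beside the beta-secretases, and substrates of the beta-secretases, were counted next. Of 8 tested genes of alpha- and gamma-secretase, Ncstn, a gamma-secretase subunit, was called in delta against beta cells (1.39, SE 0.436, limma adjusted p = 0.0419), and no other gene in any comparison. That call was lost without beta sample 1, 3 or 4 or delta sample 1, 2, 3, 4 or 6, with adjusted p up to 0.113. Of 5 tested substrates, 3 were higher in delta than in beta cells, where 11.7% of all tested genes were higher. The means of App, the amyloid precursor protein, were 67.3 ± 25.5 FPKM in delta (SD, n = 6), 9.83 ± 3.53 in beta (SD, n = 4) and 23.3 ± 12.3 in alpha cells (SD, n = 5). Its difference between delta and beta cells was 2.63 (SE 0.533, adjusted p = 0.00325). Aplp1, an App relative, was lower in beta cells than in alpha cells (-2.39, SE 0.516, adjusted p = 0.00899) and higher in delta than in beta cells (2.85, SE 0.496, adjusted p = 0.000981).

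Sez6l, a neuronal membrane protein cut by BACE1, had means of 89.0 ± 48.4 FPKM in delta (SD, n = 6), 14.99 ± 1.67 in beta (SD, n = 4) and 1.26 ± 0.983 in alpha cells (SD, n = 5). It was called in all 3 comparisons. The difference was 5.10 between delta and alpha cells (SE 0.518, limma adjusted p = 7.7e-06), 2.93 between beta and alpha cells (SE 0.574, adjusted p = 0.00473) and 2.17 between delta and beta cells (SE 0.552, adjusted p = 0.0142).

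**Figure D5:**
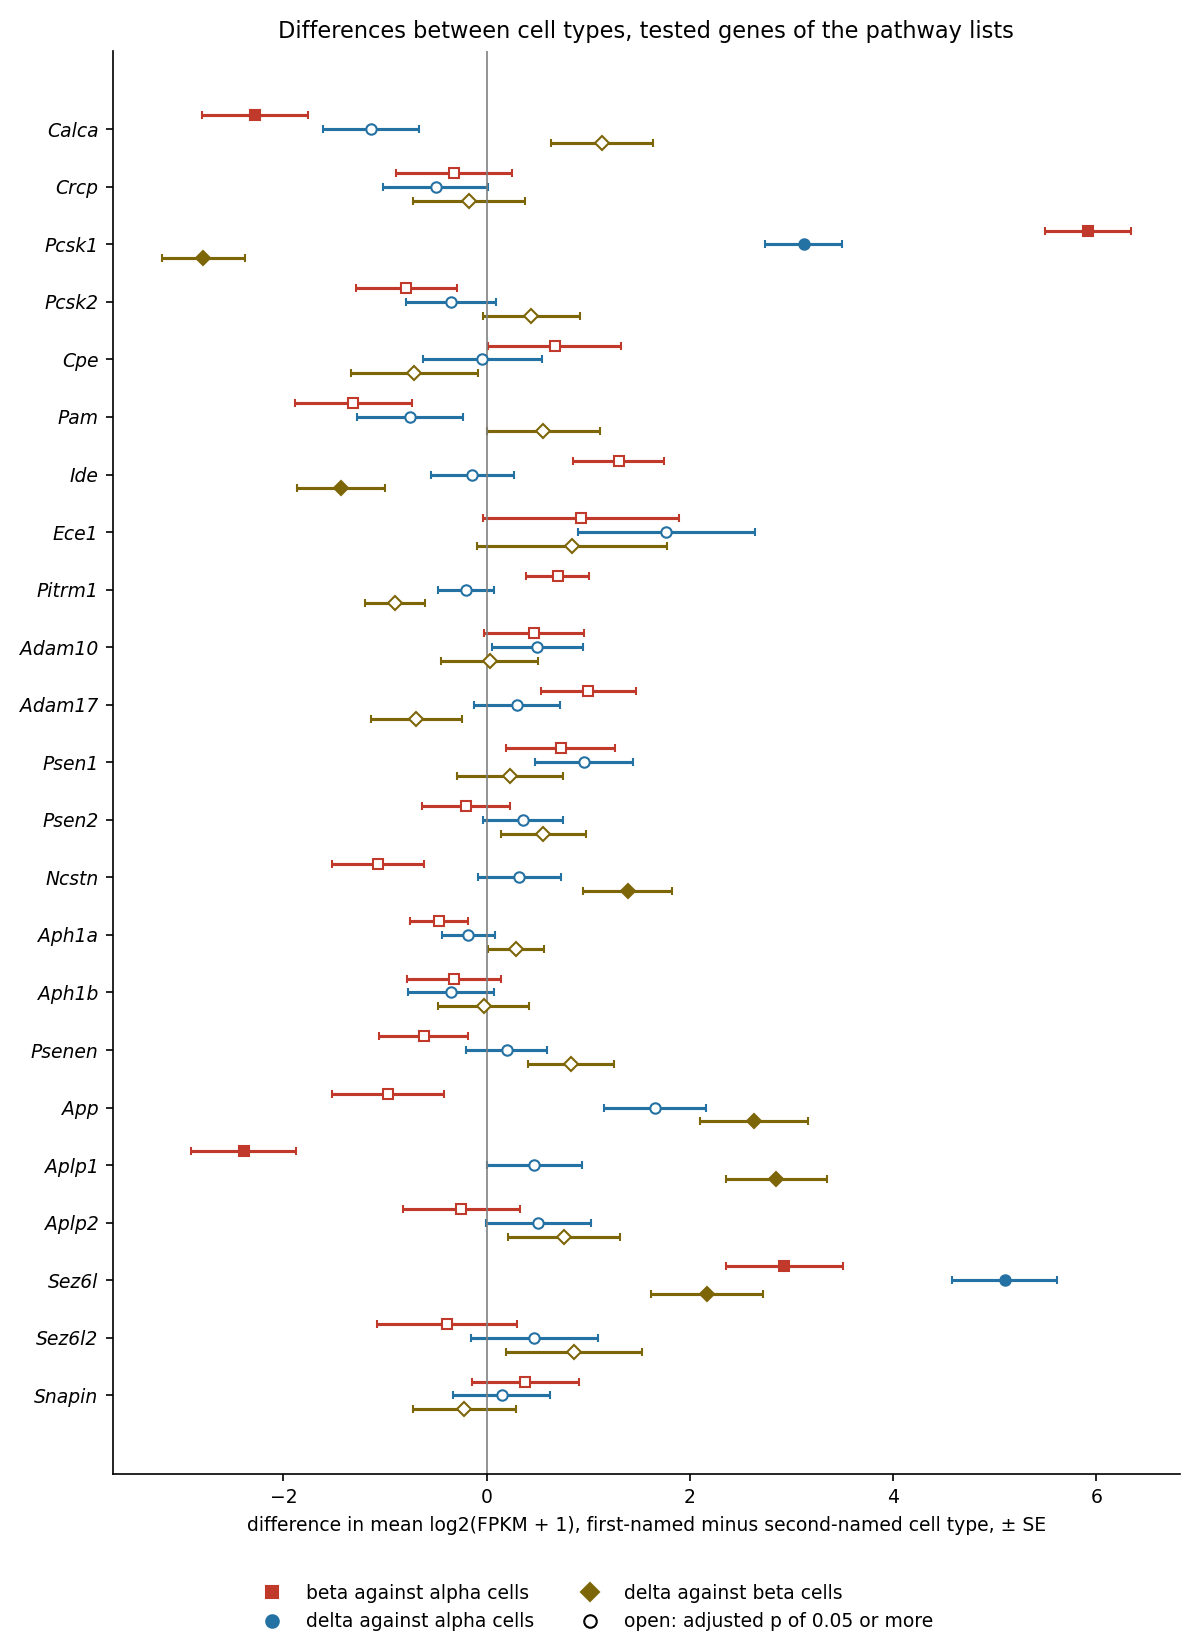
Difference in mean log2(FPKM + 1) between cell types, first-named minus second-named, with SE, for the 23 tested genes of the 6 lists; filled marks have a limma adjusted p under 0.05. Pcsk1 and Sez6l show the calls furthest from 0, and most genes have open marks near 0.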

How the data were processed

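Amplified RNA of 15 samples was sequenced (50 nt, single end). Alignment to GRCm38 used TopHat, 2.0.11 in the methods and 2.0.8 in the submitters' processing notes. The authors deposited a table of Cufflinks 2.2.1 FPKM with a column for each sample. Their edgeR comparison used read counts, which were not used here. FPKM were tested in place of counts with limma 3.58.1 in R 4.3.3 (lmFit, eBayes with a trend). Values were log2(FPKM + 1), and the model held the cell types and no covariate. Other steps used Python 3.11.15, numpy 2.4.6, pandas 2.3.3 and matplotlib 3.10.9. Cell types and replicate numbers came from the labels. Gene models are from GENCODE M21 (GRCm38), with an entry for 36341 of 38283 genes, and promoters from RefSeq (GRCm38.p6).

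The members, gene lists, sample sets (summed ribosomal protein FPKM above or below 50000) and tests were chosen with earlier results of these data known. Named are all members, the 3 genes most like each tested member, the pathway genes called and, chosen after their values were seen, some pathway and marker genes that were not called. From the lists, 2 genes are not reported here and were left out of the list counts. Depth was judged from steps of single reads in 2812 genes, and implied reads use the longest coding transcript less 200 nt. Such counts cover counting error only. Mesenchyme, duct and leucocyte markers were also summed and lay, in that order, between 0.0972 and 4.95, 8.55 and 172, and 0 and 2.81 FPKM. The fit was tested on simulated data. Alternatives were other filters and pseudocounts, size factors, quantile normalization, fits of 2 cell types, the replicate number as a block, the set as a covariate and leaving out each sample. Fits within each set were added after the data were seen.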

Additional observations from a re-analysis of the deposited data

Results flagged for a closer look

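A sample stood apart from the others of its cell type, by the gap to its neighbour as a share of the whole range, in 6 of the 24 groups of values examined for the 9 genes. For normally distributed values, chance gives about 1 in 20 groups. The criterion was applied to FPKM without logs, and its chance rate for such values was not tested. The count of 6 in 24 groups therefore cannot be read as an excess over chance. The groups are not independent, since 3 of the 6 turn on beta sample 2, and in 2 of them a lone value stands above zeros, which meets the criterion by construction. Iapp in beta sample 2 was at 118008 FPKM, with the other beta samples between 10831 and 22217. Tmem27 in the same sample was at 1201 FPKM, against 57.7 to 253. Ramp3 was at 0.0563 FPKM there and listed at 0 in the other beta samples. This is the 1 beta sample of the higher set. Calcrl in beta sample 3 was at 0.00181 FPKM, with the others listed at 0. Ramp2 was at 13.4 FPKM in alpha sample 3, against 0 to 3.62, and at 62.1 FPKM in delta sample 2, against 4.12 to 9.20.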

How the results depend on the processing

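Iapp, Bace2 and Ramp1 kept each of their calls in all 15 fits that left out a sample. The number of members called then lay between 2 and 3 in beta against alpha cells, 2 and 3 in delta against alpha cells, at 3 in delta against beta cells, and between 3 and 4 across cell types. Of 474 recomputed values, 259 from fits leaving out a sample and 175 from other alternatives kept direction and side of the threshold, or moved by less than 1 SD where untested. Within the higher set 1 member was called in delta against alpha cells (Iapp) and 2 across cell types (Bace2 and Iapp). Within the lower set 5 were called in delta against beta cells (Bace1, Bace2, Iapp, Ramp1 and Ramp2). These fits hold fewer samples, and in the higher set beta cells are sample 2 alone, which is assumed to vary like the alpha and delta samples. Same-numbered samples had correlations from -0.15 to 0.28 over 13 pairs, with 5 above 0.1, among them all 3 pairs numbered 2. Since not every pair was above 0.1, the numbers were not taken to pair the samples. Pairs of different numbers were not correlated for reference, so this check cannot decide whether alpha and beta samples came from the same sorts. With the replicate number as a block over all samples, Ramp1 was also called in beta against alpha cells (-1.79, limma adjusted p = 0.0297) and Tmem27 lost its call in delta against alpha cells (-2.91, adjusted p = 0.0689), with 1227, 831 and 2001 genes called in the 3 comparisons. With the block in a fit of alpha and beta replicates 1 to 4, 0 members and 0 genes were called by limma, with 2751 genes at an unadjusted p under 0.05, Iapp at 5.31 (adjusted p = 0.116) and Bace2 at 4.90 (adjusted p = 0.0811).

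No value that changed sign was itself called, nor was the difference it is set against. Bace1 in beta against alpha cells was 0.09 in the higher set. Ramp2 there was -0.10 with the block, -0.23 with the block on replicates 1 to 4, -0.05 in the higher set, and between -0.23 and 0.73 over fits leaving out a sample, negative without alpha 4, alpha 5 or beta 2 (-0.13), while in the lower set it was called, at 1.37 (adjusted p = 0.0317). Bace2 in delta against alpha cells was -0.27 under quantile normalization, and Tmem27 in delta against beta cells was 0.06 with the block and between -1.09 and 0.36 over fits leaving out a sample, positive without beta sample 2. Tmem27 in beta against alpha cells was called with size factors (-2.41, adjusted p = 0.0292) and quantile normalization (-2.16, adjusted p = 0.0186). In beta against alpha cells 520 genes were called when only those samples were fitted, against 1104, and 2075 and 1970 under the size factors and quantile normalization. These scalings moved the median of all genes from -0.13 to 0 and -0.01. In the other 2 comparisons the split of higher and lower calls was 723 and 344, and 1379 and 1296, with size factors, against 768 and 213, and 1683 and 431. The cause of these changes was not tested. Depth limits Calcr and Ramp3, which rest on few reads where reads could be judged.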
